A study of Oryza sativa with 2 samples.

Results

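Of the 6660 peaks listed on the 12 numbered rice chromosomes for the Myc-tagged transcription factor OsWRKY11, 684 (10.3%) lay close to another peak. Members were chosen by summit position, the base of a peak with the most fragments: a peak was counted as closely spaced when its summit was at most 2000 bp from the summit of another listed peak on the same chromosome. All 6672 deposited peaks were used to find neighbours, with no limit on signal. The closely spaced peaks were set beside 2922 isolated peaks (43.9%), which had no other summit within 20000 bp. The remaining 3054 peaks (45.9%) lay in between. On the unplaced sequences ChrUn and ChrSy, which hold 3 and 9 peaks, 2 peaks were as close to each other, and they were not counted as members. Summit positions are themselves a readout of the ChIP, and all other values of the list come from the same comparison of ChIP with input, so these values are given as a description and were not tested.

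The study used ChIP-seq, which crosslinks proteins to DNA, recovers a chosen protein with an antibody (chromatin immunoprecipitation) and sequences the DNA that comes along. The ChIP library came from shoots of transgenic pUbi:OsWRKY11-Myc rice and was pulled down with an anti-Myc antibody from Abmart. The input library came from shoots of the same genotype, with no antibody. Both therefore carry the transgene, in which the ubiquitin promoter pUbi drives the tagged factor, and plants without the tag were not analysed here. Plants were 3 weeks old per the design text, whereas titles of the samples read 30D. There was 1 library of each kind, so no value below has a replicate, and intervals cover counting error only.

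WRKY proteins are a large family of plant transcription factors that act in defence, stress responses and development. They bind a short DNA element called the W-box through the WRKY domain that gives the family its name. In plant promoters W-boxes often stand in groups, and some WRKY proteins bind neighbouring elements together. The DNA under the peaks was not read here, and peaks were not assigned to genes, because no genome or annotation in the coordinates of the list was used. Positions are therefore those of the list, whose genome build is not stated.

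Most clusters were couples. Joining consecutive summits at most 2000 bp apart gave 320 clusters, of which 287 held 2 peaks. A further 27 held 3 peaks, 2 held 4, 3 held 5 and 1 held 6. The 33 clusters with at least 3 peaks together held 110 peaks. From the first base of the first peak to the last base of the last, the clusters had a median length of 1457 bp, from 582 to 4895 bp. The peaks themselves covered a median of 39.8% of that stretch.

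Within the clusters, 364 pairs of consecutive summits were at most 2000 bp apart, with a median distance of 1076 bp and quartiles of 760 and 1494 bp. The smallest distance was 333 bp. Counted in steps of 200 bp, no pair lay within 200 bp, 6 lay at over 200 and up to 400 bp, and 36 at over 400 and up to 600 bp. The count was highest at over 600 and up to 800 bp, with 63 pairs, followed by 60 pairs in the next step, and it came to 28 pairs in the last step before 2000 bp. The free stretch between the facing edges of consecutive peaks was never under 182 bp anywhere on the 12 chromosomes, and no listed peak was narrower than 180 bp. Whether closer sites were listed as a joined peak was not tested. In steps of 1000 bp the pairs numbered 165 in the first and 199 in the second, then 168, 138 and 129 in the following steps, and 84 in the step that ends at 20000 bp.

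**Figure D1:**
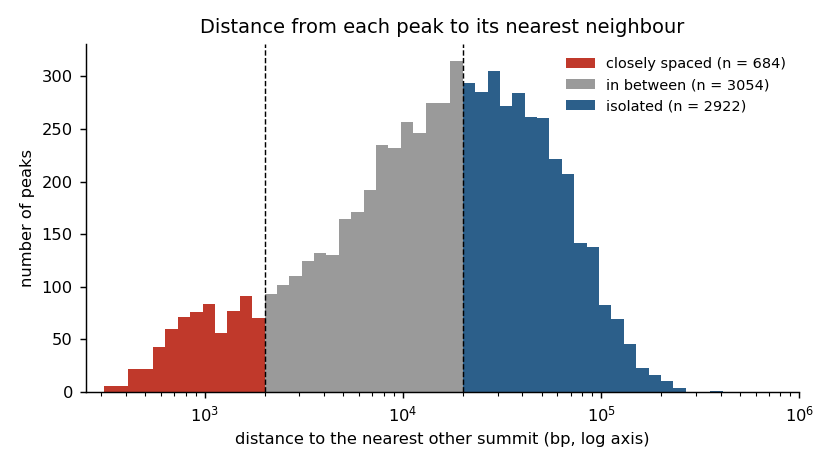
Number of peaks (vertical axis) by the distance in bp to the nearest other summit (horizontal log axis), with dashed lines at 2000 and 20000 bp. The 684 closely spaced peaks form the left shoulder, and no separate gap sets them apart from the 3054 peaks in between.

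The limit of 2000 bp fell within a continuous range of distances. The 5 pairs just inside it were 1979 to 1999 bp apart, with folds of 2.09 to 2.99, where the fold is the authors' ratio of ChIP signal to background at the summit. The 5 pairs just outside were 2002 to 2014 bp apart, with folds of 2.02 to 2.97. The outermost pair inside the limit lay on chromosome 6, with peaks at 17738653 to 17738854 and 17740636 to 17740836. The first pair outside it lay on the same chromosome, at 22640319 to 22640631 and 22642264 to 22642494.

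Most of the 5 closest pairs rested on small counts, as did most closely spaced peaks, with a median of 16 fragments. On chromosome 1, peaks at 39580529 to 39580954 and 39581213 to 39581400 had summits 333 bp apart. They carried 16 and 17 ChIP fragments and had folds of 2.54 (95% interval 1.52 to 4.03) and 2.69 (1.63 to 4.22). The next pair, on chromosome 9 at 18220601 to 18220806 and 18221083 to 18221301, had 15 and 13 fragments. Of the 5 closest pairs, 1 stood over high input coverage, on chromosome 6 at 23564745 to 23564931 and 23565135 to 23565326, with 104 and 82 fragments and folds of 2.16 and 2.24. In all 5 pairs the fold intervals of both peaks overlapped.

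The middle of the distributions was nearly the same in both classes. The median fold was 2.39 (quartiles 2.24 and 2.67) for closely spaced peaks and 2.39 (2.23 and 2.54) for isolated peaks, a difference of medians of 0.0074 with a 95% interval of −0.0054 to 0.0138. The median pileup, the number of ChIP fragments over the summit, was 16 in closely spaced peaks and 15 in isolated peaks. Median widths were 234 bp in closely spaced peaks and 230 bp in isolated peaks, a difference of 4 bp (−3.62 to 14.4). The classes differed in their upper tails. The upper quartile of the pileup was 19 fragments for closely spaced peaks and 17 for isolated peaks.

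More of the closely spaced peaks were well supported. The authors' q-value, the false discovery rate at which a peak would be accepted, was 0.05 or below for 179 of 684 closely spaced peaks (26.2%, 95% Wilson interval 23 to 30%) and for 398 of 2922 isolated peaks (13.6%, 12.4 to 14.9%). Over the whole list 15.8% of peaks passed this limit, so the closely spaced peaks stood above the list and the isolated ones slightly below it. The difference between the classes was 12.5 percentage points (9.14 to 16.2, Newcombe interval, with each peak counted as independent). Closely spaced peaks are neighbours by rule and were not independent, so this and the other intervals of their shares are likely too narrow. With the limit at 500 bp, where 40 peaks were closely spaced, it was 1.38 points (−6.66 to 15.5), so an excess was not detectable there. Enrichment of at least 3-fold was found at 54 closely spaced peaks (7.89%, 6.10 to 10.2%) and at 103 isolated peaks (3.52%, 2.92 to 4.26%), against 4.48% of the whole list. A fold of at least 4 was rare in both classes, with 7 closely spaced peaks (1.02%, 0.497 to 2.10%) and 19 isolated peaks (0.650%, 0.417 to 1.01%), beside 0.629% of the list, and the intervals overlapped.

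The input coverage moved with the spacing. The background is the number of ChIP fragments expected at a summit without binding. It had a genome-wide floor of 5.69 fragments, and values above the floor reflect more input DNA at or around that place. It was above the floor for 369 closely spaced peaks (53.9%, 50.2 to 57.7%) and for 1142 isolated peaks (39.1%, 37.3 to 40.9%), with 42.0% in the whole list. High background, at least 2 times the floor, was found at 58 closely spaced peaks (8.48%, 6.62 to 10.8%) and at 30 isolated peaks (1.03%, 0.720 to 1.46%), against 2.01% of the list. The 58 are 43.3% of the 134 high-background peaks listed, and 28 of them lay in the 4 windows of 1 Mb with the most closely spaced peaks. The difference of 7.45 points (5.54 to 9.80) between the classes was 3.90 points (2.42 to 5.89) without these windows. Both intervals count each peak as independent, although high background mostly covered whole clusters, so they are likely too narrow. High background was found at 2.48% of peaks at over 1500 and up to 2000 bp from the nearest summit (0.970 to 6.21%) and at 5.50% of those at over 2000 and up to 3000 bp (3.41 to 8.74%). Nearly all high-background peaks passed q, 55 of 58 closely spaced and 29 of 30 isolated. The lowest fold in the list was 2.00, and their median pileups were 81.5 and 100.5 fragments. At such counts a fold of 2 already gives a low q, so this share was largely set by the lowest fold listed.

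**Figure D2:**
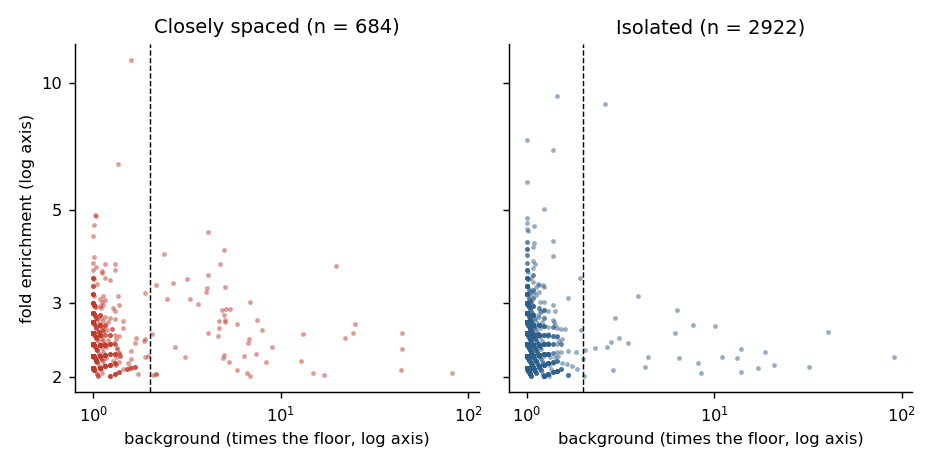
Fold enrichment (vertical log axis) against background in multiples of the floor (horizontal log axis) for closely spaced peaks on the left and isolated peaks on the right; each point is a peak and the dashed line marks 2 times the floor. To the right of that line stand 58 of 684 closely spaced and 30 of 2922 isolated peaks.

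Among peaks with a lower background the excess past q was smaller and still present. There, 124 of 626 closely spaced peaks passed q (19.8%, 16.9 to 23.1%) and 369 of 2892 isolated peaks did (12.8%, 11.6 to 14.0%), a difference of 7.05 points (3.85 to 10.6). Folds of at least 3 were reached by 39 of these closely spaced peaks (6.23%, 4.59 to 8.40%) and by 101 of the isolated peaks (3.49%, 2.88 to 4.23%). The background was also more often above the floor, at 311 of the 626 (49.7%, 45.8 to 53.6%) and at 1112 of the 2892 (38.5%, 36.7 to 40.2%). The part of these lower backgrounds in the share past q was not tested.

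The share past q was not highest in the step with the shortest distances. By distance to the nearest summit it was 21.7% of 83 peaks at up to 600 bp (14.2 to 31.7%). It was highest at over 600 and up to 1000 bp, with 33.6% of 238 peaks (27.9 to 39.8%), and came to 26.7% of 202 peaks at up to 1500 bp (21.1 to 33.2%). The intervals at up to 600 bp and at over 600 and up to 1000 bp overlapped, so a lower share at the shortest distances is not established. In the last step inside the limit it was 16.8% of 161 peaks (11.8 to 23.3%), within counting error of the 13.7% of 291 peaks at over 2000 and up to 3000 bp (10.3 to 18.2%). Beyond that it ranged from 13.4% to 19.2%. With high-background peaks left out, the 4 steps inside the limit had 13.3%, 24.5%, 21.5% and 14.6%, and the 2 higher shares were those between 600 and 1500 bp. The intervals of these 4 steps overlapped from each step to the next.

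**Figure D3:**
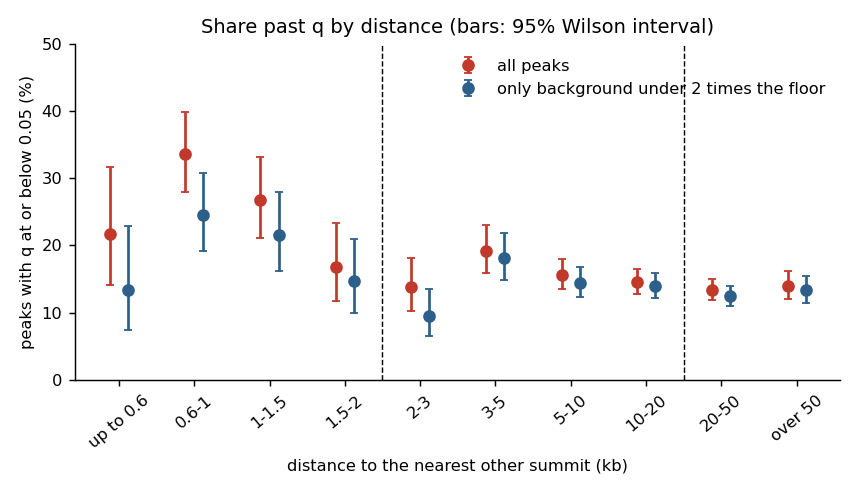
Percent of peaks with q of 0.05 or below (vertical axis, bars are 95% Wilson intervals) by distance to the nearest summit in kb (horizontal axis), for all peaks and for those with a background under 2 times the floor. Dashed lines mark the limits for closely spaced and isolated peaks; the highest share, 33.6%, is at over 600 and up to 1000 bp.

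Neighbours tended to pass q together. Among the 364 pairs at most 2000 bp apart, both peaks passed in 57, 1 peak passed in 82 and neither in 225. Both therefore passed in 41.0% (33.2 to 49.3%) of the 139 pairs with at least 1 such peak. For consecutive peaks over 2000 and up to 5000 bp apart this share was 18.5% of 135 pairs (12.9 to 25.9%), and for those over 50000 bp apart 6.52% of 690 pairs (4.91 to 8.62%). Such a share also rises with the share of single peaks past q, which was 26.2% for closely spaced and 13.6% for isolated peaks. Part of its fall with distance therefore needs no agreement between neighbours. Among pairs with both backgrounds under 2 times the floor the share was 23.3% of 103 pairs within 2000 bp (16.2 to 32.3%), against 8.62% of 116 pairs at up to 5000 bp (4.75 to 15.1%).

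**Figure D4:**
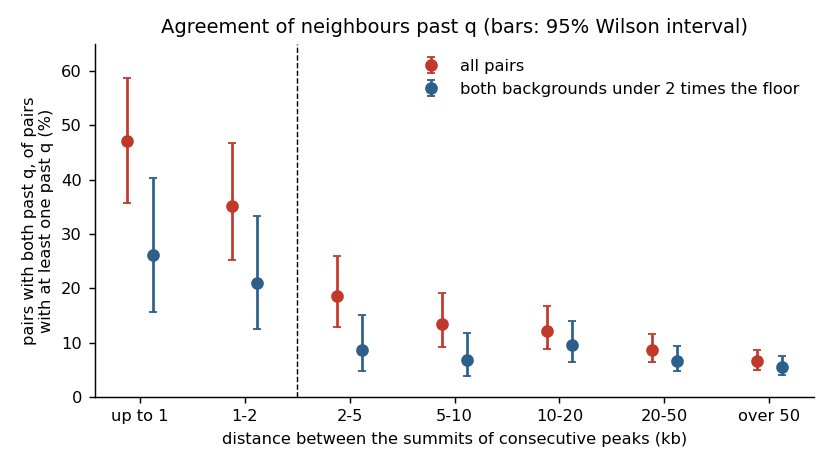
Of consecutive pairs with at least 1 peak past q, the percent in which both passed (vertical axis, bars are 95% Wilson intervals), by the distance between their summits in kb (horizontal axis). The share is 47.1% at up to 1 kb for all pairs and 26.1% for pairs with both backgrounds under 2 times the floor, and it is lower in every step beyond 2 kb.

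The rank correlation between neighbours was higher for their background than for their fold. High background was found at both peaks in 31 pairs, at 1 peak in 6 and at neither in 327. The rank correlation between the left and the right background was 0.51 over the 364 pairs, and 0.32 over the 327 pairs without high background. For the fold it was 0.20 and 0.19. These are descriptions over pairs that share 2 libraries, share peaks within clusters and have many tied values. No listed fold was under 2.00 and most rest on small counts, so the correlations of background and of fold are not directly comparable. The stretch over which input was counted for a background is not stated. Whether neighbouring backgrounds rest in part on the same input fragments was not tested. At over 2000 and up to 5000 bp the rank correlation was 0.24 for the background and −0.06 for the fold, over 435 pairs.

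Inside a pair the 2 folds were usually alike at this depth. The larger fold was a median of 1.11 times the smaller (quartiles 1.06 and 1.20), and 18 pairs had folds identical in every deposited decimal (19 within 0.001). Identical folds were also found in 28 of 435 pairs over 2000 and up to 5000 bp apart and in 156 of 2612 pairs over 50000 bp apart. The 95% fold intervals were apart in 6 of the 364 pairs, in 3 of the 435 and in 9 of the 2612. With both backgrounds under 2 times the floor they were apart in 2 of 327, 2 of 415 and 7 of 2558 pairs. The median ratio for pairs over 2000 and up to 5000 bp apart was 1.12, close to that of the closer pairs. The summit lay past the middle of the peak, towards higher coordinates, in 185 of 364 left peaks (50.8%, 45.7 to 55.9%) and in 185 of 364 right peaks, against 1432 of 2922 isolated peaks (49.0%). No lean of paired summits towards or away from each other was detectable.

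The strongest closely spaced peak stood beside a weak one. On chromosome 3, the peak at 5944468 to 5944735 carried 113 fragments, an enrichment of 11.4-fold (9.40 to 13.7). Its neighbour at 5946202 to 5946383, 1757 bp away, had 19 fragments, a fold of 2.39 (1.49 to 3.66) and a q of 0.127. The ratio of 4.77 was the largest among the 327 pairs within 2000 bp with both backgrounds under 2 times the floor. Among pairs over 2000 and up to 5000 bp apart the largest was 7.84. The second strongest was at 12138028 to 12138352 on chromosome 7, where 55 fragments gave a fold of 6.42 (4.86 to 8.32). Its neighbour at 12136873 to 12137077, 1221 bp away, passed q with 26 fragments, 3.11-fold over background (2.07 to 4.51). These are the only 2 pairs within 2000 bp over lower background in which the fold intervals were apart.

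Several of the 10 highest folds stood over backgrounds near the floor. On chromosome 3 the peak at 13468538 to 13468814 was enriched 4.85-fold (3.37 to 6.79, from 32 fragments), and its neighbour at 13469297 to 13469546 was enriched 3.58-fold (2.44 to 5.09, from 29 fragments). On chromosome 11 the peak at 24060625 to 24061150 was enriched 4.82-fold (3.34 to 6.75, from 32 fragments) and lay 550 bp from one enriched 2.87-fold (1.86 to 4.24, from 23 fragments). Both members of each of these pairs passed q, and their intervals overlapped. On chromosome 1 the peaks at 34241143 to 34241447 and 34242107 to 34242436 had 25 and 22 fragments and folds of 3.86 (2.55 to 5.63) and 3.44 (2.21 to 5.13), with q of 2.44e-06 and 0.000142.

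A few of the strong peaks had only weak company. On chromosome 6 the peak at 9255441 to 9255733 was enriched 4.59-fold (3.14 to 6.49, from 30 fragments). The 2 other peaks of its cluster, 625 and 1191 bp from it, had 15 fragments each, folds of 2.39 and q of 0.278. On chromosome 5 the peak at 24446773 to 24447149 was enriched 4.34-fold (2.93 to 6.20, from 28 fragments), and peaks on both sides had 15 fragments each and folds of 2.36 and 2.38. On chromosome 12 the middle peak of 3, at 2748055 to 2748390, was enriched 3.44-fold (2.21 to 5.13, from 22 fragments), between peaks with 15 and 14 fragments. For 36 of the 54 closely spaced peaks with a fold of at least 3, the nearest neighbour passed q. It reached a fold of 3 for 14. Among all closely spaced peaks 26.2% passed q and 7.89% reached a fold of 3, beside 15.8% and 4.48% of the whole list. The nearest neighbours' median fold was 2.71, beside 2.39 over all closely spaced peaks. For the 39 with a lower background, 23 nearest neighbours passed q, beside 19.8% of all closely spaced peaks with a lower background.

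At the other end, 17 of the 327 pairs within 2000 bp over lower background had folds identical in every deposited decimal (18 within 0.001). Over lower background, folds were identical in 28 of 415 pairs over 2000 and up to 5000 bp apart. Among pairs over 50000 bp apart they were identical in 156 of 2558. Identical folds were thus not more frequent among the closer pairs. An example is chromosome 10, where peaks at 3210546 to 3210813 and 3212253 to 3212450 each held 19 fragments, 2.97-fold over background (1.85 to 4.55). On chromosome 1 the peaks at 23715352 to 23715535 and 23717232 to 23717457 each held 14 fragments, 2.24-fold over background (1.29 to 3.66). Pileups are small whole numbers, so where 2 backgrounds are equal, equal folds need only equal counts. Both backgrounds were at the floor in 105 of the 327 pairs over lower background. The chromosome 1 pair was among these, whereas both peaks of the chromosome 10 pair had a background of 1.01 times the floor.

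The largest cluster held 6 peaks on chromosome 3, between 13361377 and 13366271. Its pileups were, in order along the chromosome, 17, 19, 22, 30, 21 and 24 fragments, and its folds 2.46, 2.51, 3.11, 3.7, 3.06 and 2.72. The last 4 peaks passed q and the first 2 did not, and the fold intervals of all 6 overlapped. Backgrounds were 1.09 to 1.44 times the floor, so every peak of the cluster stood over slightly raised input. Chromosome 3 held 3 further clusters of 2 peaks each between 13468538 and 13479199, of which 5 of 6 peaks passed q.

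Clusters of 5 peaks lay on chromosomes 10, 3 and 11. The cluster on chromosome 10 between 5130324 and 5134651 had 19, 16, 19, 22 and 24 fragments and folds of 2.64, 2.24, 2.28, 3.44 and 3.65, and the first and the last 2 of them passed q. It followed 2 clusters of 2 peaks, between 5124097 and 5125750 and between 5127120 and 5128574, in which all 4 peaks passed q. Peaks covered 79.0% and 83.7% of those 2 stretches and 64.3% of the cluster of 5. The cluster on chromosome 3 between 28459507 and 28463136 was weak, with 15, 14, 15, 15 and 19 fragments, and its last peak alone passed q, with a fold of 2.99 (1.86 to 4.59).

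The clusters on chromosome 11 stood over high input. Between 12102355 and 12106875, 5 peaks had 79, 63, 71, 67 and 38 fragments, folds of 2.00, 2.22, 2.61, 2.5 and 2.35, and backgrounds of 2.74 to 6.84 times the floor. All 5 passed q. Clusters of 4 peaks lay between 12088111 and 12091683, with folds of 2.88 to 3.42, and between 12039875 and 12043790, with folds of 2.17 to 3.07. All 8 of these peaks passed q as well, and within each cluster the intervals of the folds overlapped.

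**Figure D5:**
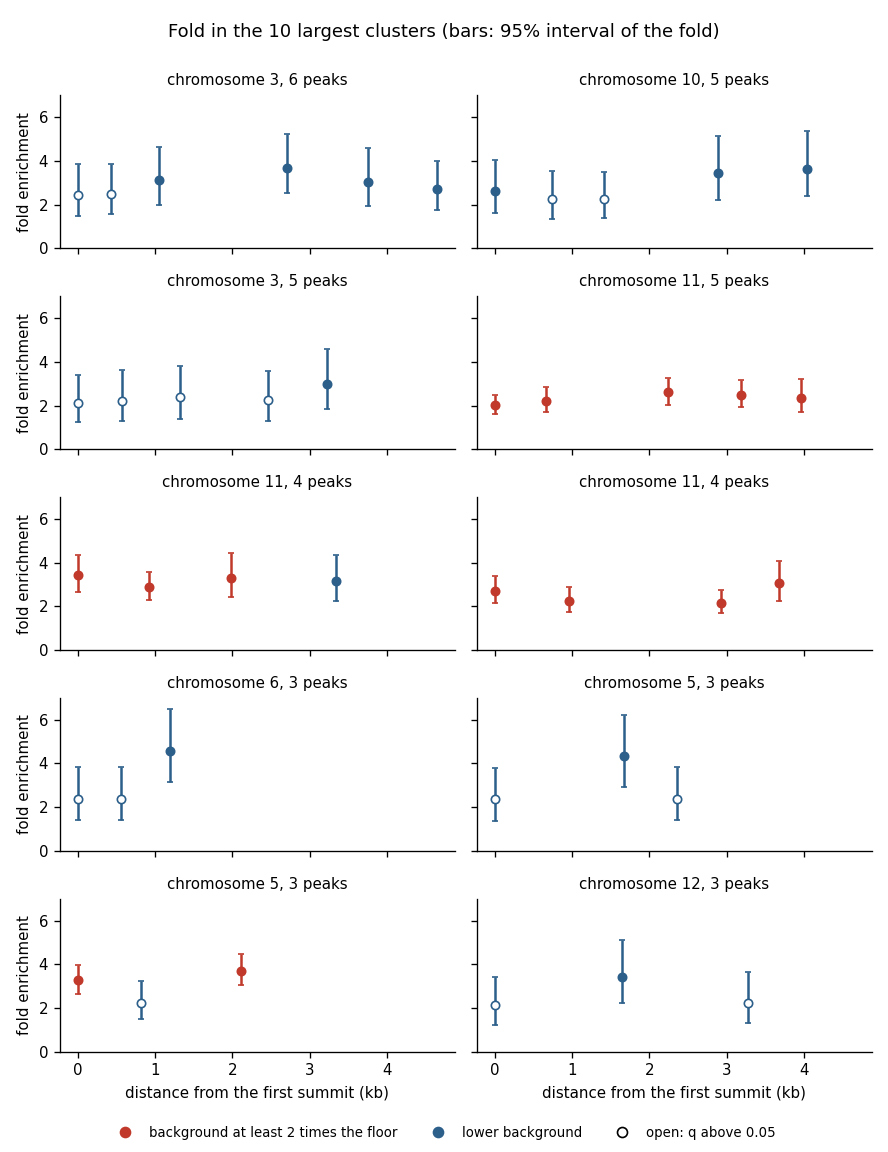
Fold enrichment of each peak (vertical axis, bars are 95% intervals from the ChIP count) against its distance in kb from the first summit of its cluster (horizontal axis), for the 10 clusters with the most peaks, ties at 3 peaks filled by the highest fold in the cluster. Open points have q above 0.05 and red points a background of at least 2 times the floor; the 6 peaks on chromosome 3 have folds of 2.46 to 3.7, and the 3 clusters on chromosome 11 hold 12 of 13 peaks in red.

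High background mostly covered whole clusters. Of the 320 clusters 26 held a high-background peak, and in 21 of these, with 50 peaks, every peak was one. By chromosome, 18 of the 58 peaks lay on chromosome 11, 15 on chromosome 5, 8 on chromosome 6 and 5 on chromosome 2, and none on chromosomes 4, 7, 8 and 9. At the end of chromosome 5, 3 peaks between 29955113 and 29957417 had 96, 26 and 103 fragments. The outer peaks had folds of 3.27 (2.65 to 3.98) and 3.71 (3.03 to 4.49). The peak between them had a fold of 2.24 (1.49 to 3.24), a background of 1.95 times the floor and a q of 0.0571. The pair before them, at 29944917 to 29945123 and 29946682 to 29946881, had 116 and 107 fragments and folds of 4.0 (3.31 to 4.79) and 4.43 (3.64 to 5.35). At 12151162 to 12151430 on chromosome 11, a peak over 2.38 times the floor was enriched 3.92-fold (2.98 to 5.07, from 56 fragments), beside one enriched 2.55-fold (1.96 to 3.26). On chromosome 12, a pair between 16620261 and 16622299 had high background and equal counts of 26 fragments, and neither passed q (0.200).

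The highest backgrounds among closely spaced peaks rested on many input fragments. With the counting error of both libraries, 948 ChIP and 1132 input fragments at 15483043 to 15483233 on chromosome 6 gave a scaled ratio of 2.04 (exact Clopper-Pearson limits 1.87 to 2.23). Its neighbour at 15483849 to 15484034, 838 bp away, had 586 and 615 fragments and a ratio of 2.33 (2.07 to 2.61). The peak on chromosome 2 at 28719689 to 28721006 had 645 and 618 fragments and a ratio of 2.55 (2.28 to 2.85). Near the start of chromosome 6, the peak at 32271 to 32478 had 517 and 607 fragments and a ratio of 2.08 (1.84 to 2.34). The last of the 5, at 29905198 to 29905392 on chromosome 5, held 382 and 347 fragments, a ratio of 2.69 (2.32 to 3.12).

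Closely spaced peaks were found on every chromosome. They made up from 7.14% of listed peaks on chromosome 8 (34 of 476, 5.16 to 9.82%) to 13.5% on chromosome 11 (61 of 452, 10.7 to 17.0%). Chromosomes 10 (13.3%) and 9 (13.1%) were next to the highest, and chromosomes 12 (7.49%) and 4 (8.02%) next to the lowest. Per 1 Mb up to the last listed position there were between 1.13 on chromosome 12 and 2.37 on chromosome 10. The share of them past q ran from 7.41% on chromosome 4 (4 of 54) and 10% on chromosome 9 (5 of 50) to 40% on chromosome 10 (22 of 55) and 44.3% on chromosome 11 (27 of 61). Chromosome 9 thus had many close neighbours but few past q and none with a fold of at least 3. Chromosomes 3 and 5 had 11 each at that fold. The same shares over all listed peaks of each chromosome are not given here. Whether these values are particular to the closely spaced peaks of a chromosome was therefore not tested.

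A few windows held many closely spaced peaks past q, though most of these peaks lay elsewhere. Of the 378 windows of 1 Mb with a listed peak, 165 held no closely spaced peak, the median was 2 and 8 windows held at least 8. The window from 12 to 13 Mb on chromosome 11 had 19, all past q and 17 of them with high background. The window from 5 to 6 Mb on chromosome 10 had 16, of which 7 passed q and none had high background. Windows from 13 to 14 Mb on chromosome 3 and from 29 to 30 Mb on chromosome 5 had 12 each, with 9 and 11 past q and 0 and 11 with high background. The share past q over all listed peaks of each window is not given here. These 4 windows held 46 of the 179 closely spaced peaks past q. Without them 133 of 625 closely spaced peaks passed q (21.3%), and the difference from isolated peaks was 7.76 points (4.46 to 11.3). Without high-background peaks as well it was 4.69 points (1.57 to 8.16).

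The next most crowded windows varied. On chromosome 2 the window from 25 to 26 Mb had 10 closely spaced peaks, of which 2 passed q, and that from 21 to 22 Mb had 8, of which 3 passed. The window from 12 to 13 Mb on chromosome 5 also had 3 of 8 past q. None passed of the 8 peaks from 18 to 19 Mb on chromosome 6. Of the windows with 7 each, those on chromosome 1 from 20 to 21 Mb and on chromosome 9 from 14 to 15 Mb had none past q, and that on chromosome 7 from 17 to 18 Mb had 1. Of the 320 clusters, 201 held no peak past q, 119 held at least 1, and in 42 every peak passed. Among clusters of at least 3 peaks 42 of 110 peaks passed (38.2%), against 137 of 574 in clusters of 2 (23.9%). In the 26 larger clusters without high background 18 of 85 peaks passed (21.2%), beside 19.8% of all closely spaced peaks with a lower background.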

How the data were processed

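One list of peaks, called from an anti-Myc ChIP library against an input library per the peak names, was analysed. The tools in the submitters' processing notes are MACS2 2.2.7.1, BWA 0.7.12-r1039 and Trimmomatic 0.36; for settings, genome build and duplicates, nothing is given in the sources used here. Per the file headers, the list gives the pileup (a signal, in ChIP fragments), the fold enrichment (a ratio), and the p-value and q-value as −log10 values; all are the authors' own deposited values for each peak. Positions are taken as 1-based, because each deposited length counts both end bases.

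The members and measures were chosen with earlier results of these data known. The rest was computed with Python 3.11.15, numpy 2.4.6, pandas 2.3.3, scipy 1.17.1 and matplotlib 3.10.9. The background was solved as (pileup + 1)/fold − 1, and its most common value (tolerance 0.001), held by 3867 peaks, is the floor. A Poisson tail at these backgrounds gave every deposited −log10 p-value to within 0.000336. A step of 0.410 divided 81.7% of the 1014 backgrounds over 1.15 times the floor into whole numbers (tolerance 0.05). It was taken as the scaled weight of an input fragment, which makes 2.44 input fragments per ChIP fragment. Library totals are unknown. Fold intervals come from exact Poisson limits of the pileup. Intervals of median differences combine order-statistic limits of both medians. All intervals are at 95% and cover counting error only, since PCR copies are not independent. Intervals of shares also count neighbouring peaks as independent, which they were not, and are likely too narrow. The finding of neighbours, clusters, the floor and the step was tested on a simulated list. The Newcombe interval was tested with simulated independent peaks, unlike the neighbouring peaks here. The other intervals were not tested in this way. With 1 library per group nothing was tested. Named regions were the 10 clusters with the most peaks (ties by the highest fold in the cluster), the 10 highest folds, the 5 closest pairs and those on either side of the limit, the 5 largest and smallest fold ratios over lower background, and the 5 highest backgrounds; windows and further clusters were chosen after their values were seen. Sequence and gene positions were not used.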

Additional observations from a re-analysis of the deposited data

How the results depend on the processing

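Of the 54 other settings listed at the start 51 were run; the 3 on W-box shares needed a genome and were not run. All others, those on pairs, windows, chromosomes and clusters of 2 included, were chosen after seeing the data. The 684 closely spaced peaks in 320 clusters became 321 in 156 at 1000 bp between summits, 40 in 20 at 500 bp and 1434 in 635 at 5000 bp. They became 101 in 44 when only peaks past q were kept and 138 in 65 at a fold of at least 2.5; fewer peaks enter there. The difference of 12.5 points in the share past q, closely spaced minus isolated, was 16.9 at 1000 bp, 1.38 (−6.66 to 15.5) at 500 bp and 7.79 at 5000 bp. It was 23.6 at a fold of at least 2.5, 6.50 with high-background peaks removed before neighbours were sought, 6.21 with only clusters of 2 as well, 7.76 without the 4 most crowded windows and 4.69 without both these windows and high background. Leaving out each chromosome gave 10.7 to 14.0. The difference of 7.45 points in high background was 10.8 at 1000 bp, 4.55 at 5000 bp, 47.6 among peaks past q, 10.8 at a fold of at least 2.5, 5.07 in clusters of 2, 3.90 without the 4 windows and 5.36 without chromosome 11. The difference in median fold of 0.0074 was −0.095 at 500 bp, 0.050 among peaks past q, 0.107 at a fold of at least 2.5 and 0.0226 without the added fragment. The difference in median width of 4 bp was −5 bp among peaks past q and 18 bp at a fold of at least 2.5. The 41.0% of pairs with both past q was 23.3% over lower backgrounds and 51.1% at q of 0.01 or below. The cause of these shifts was not tested. The other 56 alternatives moved a value by less than its interval, or a count by less than 1.5 times. No paired analysis was possible because each group has 1 library and no result comes from a test. At 13 to 19 fragments, where most of these peaks lie, differences between neighbouring folds are not detectable at this depth.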
